A study of Solanum lycopersicum with 18 samples.

Results

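A set of 9 genes of the tomato fruit-ripening programme, given by identifier, was followed in shoot apices, a tissue that carries no fruit. They are *RIN* (Solyc05g012020), *NOR* (Solyc10g006880), *CNR* (Solyc02g077920), *ACS2* (Solyc01g095080), *ACS4* (Solyc05g050010), *ACO1* (Solyc07g049530), *E8* (Solyc09g089580), *PG2a* (Solyc10g080210) and *PSY1* (Solyc03g031860). All 9 were found among the 35825 genes of the RNA-seq table. Apices with 3 expanding leaves were taken from plants grown on soil for 28 days. Total RNA was sequenced in 7 *crel* libraries, of which 2 are labelled *crel-2*, 3 *crel-1* and 2 *crel-3*, and in 3 wild-type libraries. All are of the cultivar M82. *CREL* encodes a VIL protein, a PHD-finger protein of the group that recruits PRC2, the complex that places the repressive histone mark H3K27me3. In the study's description *crel-1* has a premature stop codon, *crel-2* lacks the first exons after a fast-neutron deletion and *crel-3* lacks a single base of the first exon. A table of the study gives other allele names to the lines labelled *crel-1* and *crel-3*. The series also holds 8 ChIP-seq and input libraries, which were not analysed here.

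Tomato ripening is started by transcription factors and by a burst of the gas ethylene. RIN (a MADS-box protein), NOR (a NAC protein) and CNR (an SBP-box protein) are named after mutants whose fruits fail to ripen normally. In the burst, ACC synthases such as ACS2 and ACS4 make the ethylene precursor ACC, and ACC oxidases such as ACO1 turn it into ethylene. Further downstream, *E8* is an ethylene-responsive gene of ripening fruit, *PG2a* encodes the polygalacturonase that breaks down pectin in the softening wall, and *PSY1* encodes the phytoene synthase that opens the carotenoid pathway of the red fruit.

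The question was whether these genes were silent in apices of *crel* plants. The values that could be used give 1 number per gene, the authors' mean normalised count over all 10 libraries. A normalised count is the number of reads on a gene divided by the size factor of the library, and it grows with the length of a gene, so the order of genes below is an order of reads and not of transcripts. No library had a value of its own. The spread between libraries and the values of each line could therefore not be computed. The table also holds the authors' own comparison of *crel* with wild type, which was not used here, so no test between the genotypes is given. Because a count cannot be below 0, the pooled mean does set a ceiling for each genotype. The 7 *crel* libraries can average at most the summed count divided by 7, the case in which wild type had no reads at all, and the 3 wild-type libraries at most the summed count divided by 3. These ceilings are arithmetic limits, not estimates, and both cannot be reached at once. The means of all genes added up to 17277983 reads, so a mean count of 1 is a small part of a library. In bulk apices, fewer cells that express a gene and less RNA per cell cannot be told apart.

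None of the 9 genes was at 0, although 1402 genes of the table, or 3.91%, were. The 9 means ran from 2.57 for *PG2a* to 352 for *PSY1*, which is 137 times as many reads. Their median was 13.7, against 32.3 for all 35825 genes. Under a mean count of 10 lay 3 of the 9 genes (33.3%), and 35.8% of all genes of the table lay there too. Under 100 lay 7 of the 9, or 77.8%, beside 61.3% of all genes. *PSY1*, *CNR* and *ACO1* together held 89.8% of the reads of the group, and *PSY1* alone held 59.0%.

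**Figure D1:**
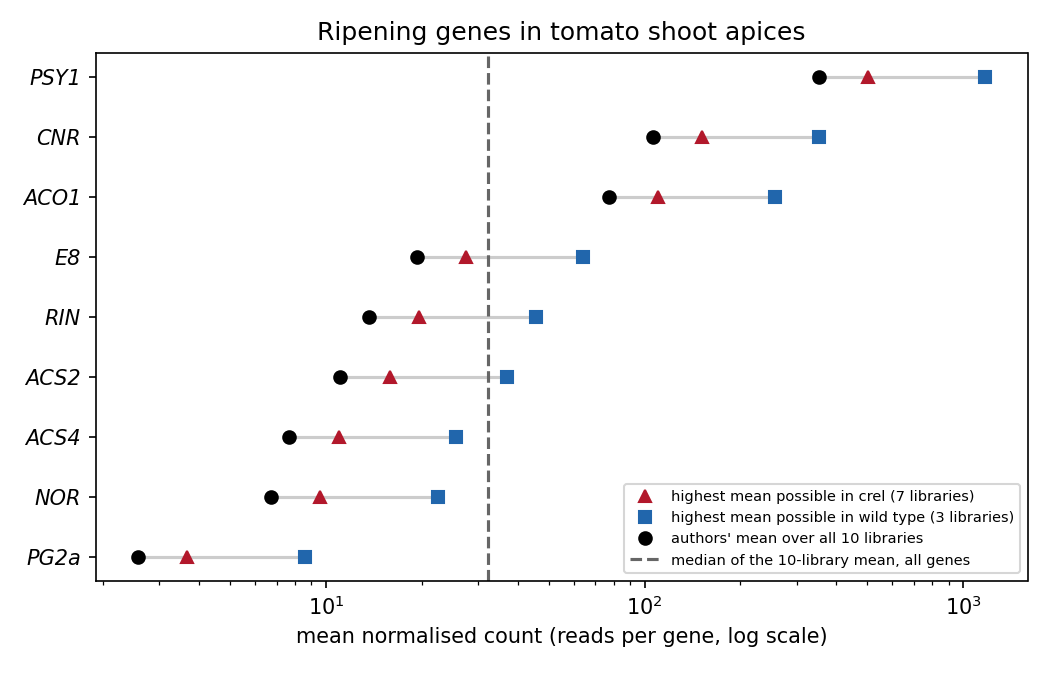
The horizontal axis gives the mean normalised count in reads per gene on a log scale, with 1 row for each of the 9 ripening genes. Circles are the authors' means over all 10 libraries. Triangles and squares are the highest mean that the 7 *crel* and the 3 wild-type libraries could have had. The dashed line is the median of all genes at 32.3. The *crel* ceilings of 6 genes lie left of it, from 3.67 for *PG2a* to 27.6 for *E8*, as do those of at least 44.7% of all genes.

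Among the 3 regulators, *RIN* had a mean count of 13.7 and *NOR* of 6.72. Summed over the 10 libraries, these are 137 normalised reads for *RIN* and 67.2 for *NOR*. *CNR* stood apart from them with a mean of 106. The ceiling of *NOR* was 9.60 in *crel* and 22.4 in wild type. For *RIN* it was 19.6 in *crel* and 45.6 in wild type, and for *CNR* 152 in *crel* and 354 in wild type. Placed among all genes by mean count, 29.2% of genes had fewer reads than *NOR*, 40.4% fewer than *RIN* and 62.0% fewer than *CNR*. Thus both *RIN* and *NOR* lay under the median gene and *CNR* above it. In the RefSeq annotation of assembly SLM_r2.1, 1 other gene, which joins *RIN* with the neighbouring gene *MADS-MC*, overlaps *RIN*. The counts were made on other gene models, since no identifier of the table is in RefSeq. Whether any overlap affected the count of Solyc05g012020 therefore cannot be told from this annotation.

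The ethylene genes differed between the 2 enzyme steps in the number of reads. *ACS2* had a mean count of 11.1 and *ACS4* of 7.68, both ACC synthases under the median of all genes. *ACO1*, the ACC oxidase, had a mean of 77.2. In *crel* the ceiling was 15.9 for *ACS2* and 11.0 for *ACS4*, and in wild type it was 37.0 for *ACS2* and 25.6 for *ACS4*. *ACO1* could have averaged up to 110 in *crel* and up to 257 in wild type. By rank, 37.4% of genes had fewer reads than *ACS2*, 31.3% fewer than *ACS4* and 58.6% fewer than *ACO1*. ACC synthases and ACC oxidases are families, and in RefSeq only 1 gene lies between *ACO1* and *EFE*, a gene with *ACO3* among its synonyms. Reads shared by such copies may have been split or dropped in counting, which was not tested.

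*PG2a* had the fewest reads of the 9, with a mean of 2.57 and a summed count of 25.7 over the 10 libraries. Of all genes in the table, 15.0% had a lower mean. Its ceiling was 3.67 in *crel* and 8.57 in wild type, so that, whichever libraries held its reads, neither genotype averaged 10. The 15.0% of genes with a lower mean have lower ceilings too, so this is no trait of *PG2a* alone. *NOR* also stayed under 10 in *crel*, but not necessarily in wild type. At least the 29.2% of all genes with fewer reads than *NOR* stayed under 10 in *crel* as well.

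*E8* had a mean count of 19.3, with a ceiling of 27.6 in *crel* and 64.3 in wild type, and 44.7% of genes had fewer reads. The name needs care. The identifier places the gene on chromosome 9. RefSeq has a gene on chromosome 9 with the symbol *ACO3* and the synonym E8/Sl27DOX, and another with the symbol *E8* on chromosome 3. The name *ACO3* is itself shared there with *EFE* on chromosome 7. For the other 8 genes, a RefSeq gene of that name or synonym lay on the chromosome of the identifier. The value of 19.3 belongs to Solyc09g089580.

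*PSY1* was the opposite end of the range. Its mean count of 352 lay above that of 78.2% of genes. The ceiling was 503 in *crel* and 1173 in wild type. From the pooled mean alone *PSY1* was not silent in apices as a whole, and the same holds for *CNR* and *ACO1*, the other genes above the median. Whether the reads of these genes came from *crel* or from wild-type libraries cannot be read from the pooled mean. For the remaining 6 of the 9 genes, the ceiling in *crel* lay under 32.3, the median of the pooled means of all genes. In wild type, which has fewer libraries and hence a higher ceiling, this was so for 3 genes (33.3%), *PG2a*, *NOR* and *ACS4*. Every gene with fewer reads has lower ceilings. At least the 44.7% of all genes below *E8* thus had a *crel* ceiling under 32.3. For the wild-type ceiling the share of all genes was at least the 31.3% below *ACS4*. It was at most the 35.8% with a mean under 10, so 3 of 9 is near the share of all genes.

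**Figure D2:**
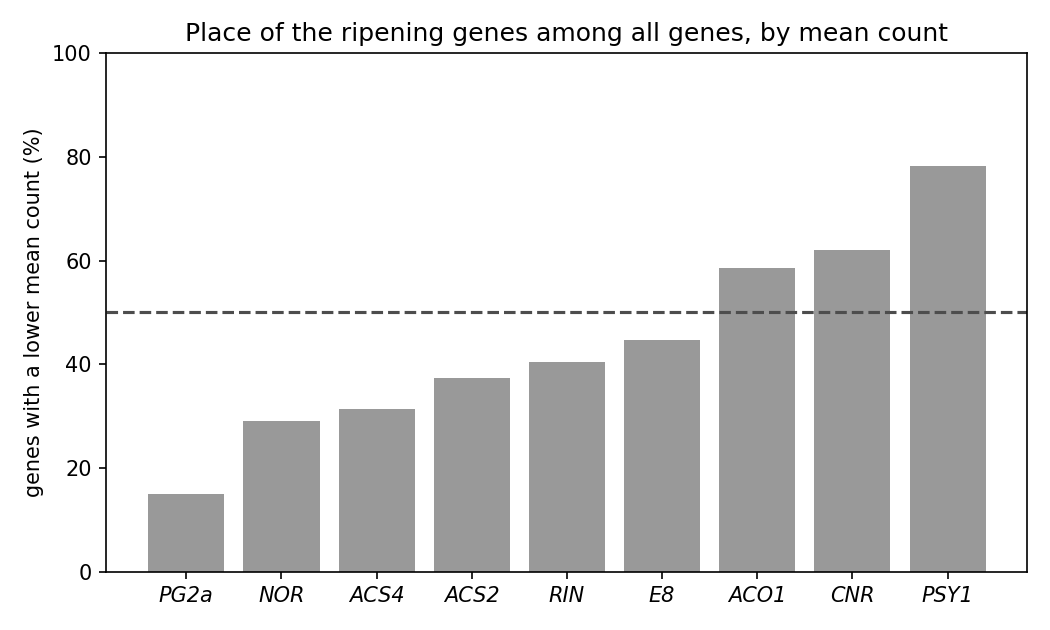
Each bar gives, for 1 of the 9 ripening genes, the percentage of the 35825 genes with a lower mean normalised count, with the dashed line at the median gene. *PG2a* stands at 15.0% and *PSY1* at 78.2%, and *ACO1*, *CNR* and *PSY1* are above the line.

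Other genes of the same pathways were taken from lists whose identifiers were assigned from general knowledge. Of 35 identifiers, 33 were found in the table. Their median mean count was 407, and 2 of the 33 lay under 10. The 8 ethylene perception genes had from 78.5 (Solyc09g089610) to 3039 (Solyc09g007870) reads, with a median of 452. Receptors and signal carriers of this kind act in every tissue that responds to ethylene, not in fruit alone. For ethylene synthesis, 5 genes beside *ACS2*, *ACS4* and *ACO1* ran from 48.4 (Solyc07g049550) to 1509 (Solyc02g081190), with a median of 55.2, so each of them had more reads than either *ACS2* or *ACS4*. The 8 further regulators of ripening ran from 10.6 (Solyc03g114830) to 2514 (Solyc10g083630), with a median of 74.6. Neither the mean of *NOR* nor that of any regulator of the list was 0, and *NOR* had fewer reads than all 8. *RIN* at 13.7 and *CNR* at 106 lay within the range of the list, *CNR* above its median.

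The 4 other fruit softening genes, which encode enzymes and proteins of the wall, all had more reads than *PG2a*. They ran from 20.4 (Solyc06g051800) to 771 (Solyc09g010210), with a median of 528. Carotenoids are made in green leaves as well, and the 8 carotenoid genes had a median of 1013. The highest of them was Solyc01g097810 with 2425 reads. Solyc04g040190 was listed at 0 and was the only gene of these lists that was. The name listed for this identifier was not found in RefSeq. Whether the 0 is the level of the gene meant was not tested. The 9 ripening genes had a median of 13.7, against medians from 55.2 to 1013 for the lists, as a description over chosen lists and with gene length not removed.

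**Figure D3:**
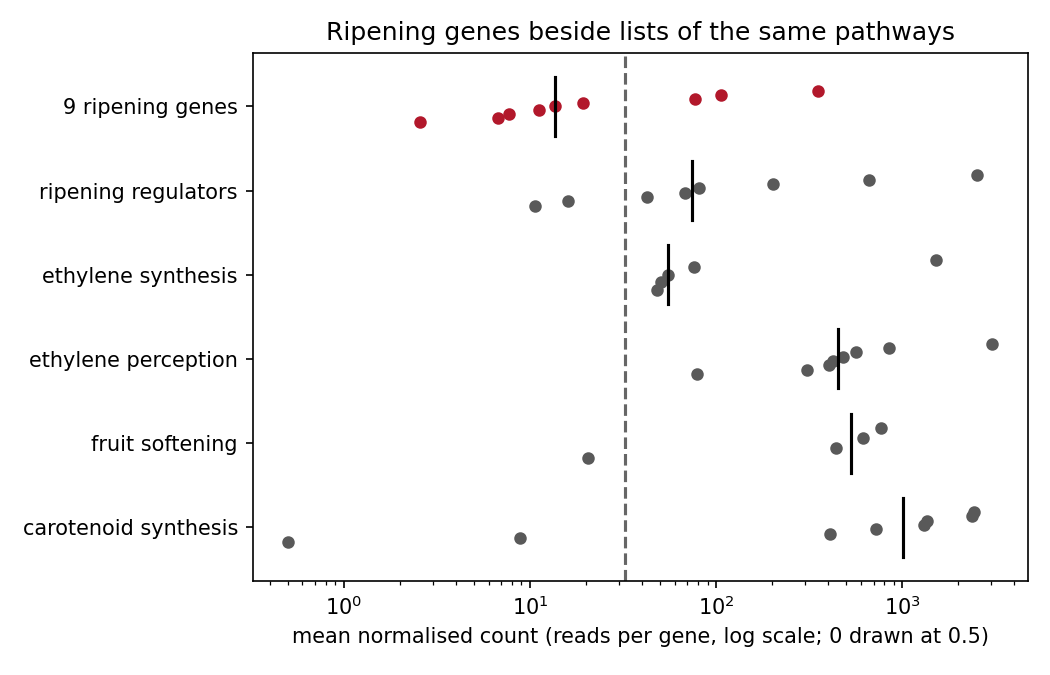
Points are genes, placed by mean normalised count in reads per gene on a log scale, with 1 row per list, black bars at list medians and the dashed line at the median of all genes, 32.3. The 9 ripening genes in red have a median of 13.7, and each list of other pathway genes has a median above the dashed line; the gene at 0 is drawn at 0.5.

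Markers of leaf and meristem were looked up as a description of the tissue. Identifiers listed for the small subunit of Rubisco had mean counts of 43496 (Solyc02g063150) and 28311 (Solyc03g034220), and those listed for KNOX genes of the meristem had 48.3 (Solyc04g077210) and 57.5 (Solyc02g081120). By rank, the Rubisco genes lay above 99.9% and 99.8% of genes and the KNOX genes above 53.9% and 55.6%, not far from the median gene. *RIN*, *NOR*, *ACS2*, *ACS4*, *E8* and *PG2a* each had fewer reads than either KNOX gene. *CREL* itself (Solyc05g018390) had a pooled mean of 376, which mixes mutant and wild-type libraries.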

How the data were processed

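Apices of *crel* and wild-type tomato were sequenced. Before deposit, the authors ran Trimmomatic on the reads, STAR against the SL3.0 genome, featureCounts on genes and DESeq2 for normalisation; versions are not given in the sources used here. From the deposited table, the mean normalised count was used, a signal that the authors averaged over 10 libraries. Of the remaining columns, 6 hold the authors' comparison of *crel* with wild type (fold change, its error, test statistic, p-values and a call), and none was used. The depth of single libraries is not in the table. The 4 H3K27me3 peak lists carry SL2.40 names, for which no gene positions were given, and were not used.

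Ceilings, ranks and medians were computed in Python 3.11.15 with numpy 2.4.6 and pandas 2.3.3; figures were drawn with matplotlib 3.10.9. No filter or pseudocount was applied. Low means under 10 were tallied. The ranking code was run on simulated data, in which 1000 of 1000 planted ranks were recovered. This run checks the arithmetic of the code only and says nothing about the ranks of the measured genes. The genes and lists were chosen with earlier results of these data known. Named were the 9 genes, the lowest and highest of each list, the marker genes and *CREL*. No identifier of the table is in RefSeq (assembly SLM_r2.1), which was used for names: of 49 names, 40 were found in full as a symbol or synonym, 39 of them with a gene on the chromosome of the identifier. Alternatives covered the limit on low means and the genes ranked.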

Additional observations from a re-analysis of the deposited data

How the results depend on the processing

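The tally of low genes followed its limit: none of the 9 had a mean count under 1 (0 genes), 3 had one under 10 and 7 had one under 100. When only the 34423 genes above 0 were ranked, the median share of genes below the 9 was 37.9% in place of 40.4%, and it was 35.1% among the 32902 genes with a mean of at least 1. Single genes fell by 0.887 to 3.46 percentage points in the first case and by 1.93 to 7.56 in the second. No paired analysis was possible because the table has no column for a single library. For the same reason leaving out replicates, another normalization and a filter were not run. Levels per coding length were not run, since no coding lengths were given, nor were peaks at the genes. The lowest means of the table are multiples of the steps that 1 read adds in a library, but only 9 of the 10 steps were found, so the means of the 9 genes were not written as whole reads and the 2 tolerances were not run. How many reads came from each genotype thus limits every statement on *crel*.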

Other observations

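The most frequent step among the lowest mean counts was 0.0732, the share of 1 read in 1 library that is not identified. A mean of exactly this size was found in 47 genes, 2 steps in 66, 3 steps in 31, 4 steps in 39 and 5 steps in 12, counted within 1e-07. Of these multiples, 2 and 4 steps were each more frequent than the odd ones beside them, and higher multiples were not counted. Whether a read pair counted as 1 read or as 2 is not given in the sources used here, and if it counted as 2, the 25.7 reads of *PG2a* would come from fewer fragments. This was not tested.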
